A study of Bos taurus with 6 samples.

Results

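The genes that encode the subunits of AMP-activated protein kinase (AMPK), together with 3 genes of its partners, were examined in longissimus dorsi muscle, a back muscle, of a Chinese beef breed and of a breed derived from it. The 10 genes were chosen by name: PRKAA1, PRKAA2, PRKAB1, PRKAB2, PRKAG1, PRKAG2, PRKAG3, STK11, CAB39 and EEF2K. They are 10 of 18010 genes with a value in the files, and all 10 were among the 9781 genes tested. The RNA-Seq libraries, 1 per animal, came from 3 Luxi cattle (L) and from 3 Shandong black cattle (B). Each animal was 18 months old, and the labels name no treatment. Luxi cattle is the local breed, and Shandong black cattle combines it with Bohai black and Japanese black cattle. The labels give no sex, and the sex marker XIST separated the breeds. A difference in sex therefore cannot be told apart from breed. The study obtained the breeds from separate suppliers, so breed and origin cannot be told apart either.

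AMPK is a kinase that cells use to sense a shortage of energy. Each AMPK complex holds a catalytic α subunit (PRKAA1 or PRKAA2), a scaffold β subunit (PRKAB1 or PRKAB2) that also binds glycogen, and a γ subunit (PRKAG1, PRKAG2 or PRKAG3) that binds AMP, ADP and ATP. The kinase LKB1, encoded by STK11, activates AMPK by phosphorylating its α subunit, and it works in a complex with a STRAD pseudokinase and the scaffold protein MO25α, encoded by CAB39. EEF2K is the kinase that phosphorylates elongation factor 2 and slows the elongation of protein synthesis, and it lies downstream of AMPK rather than upstream. In skeletal muscle, AMPK is known for promoting glucose uptake and fatty acid oxidation, and PRKAG3 is known as a γ subunit of fast glycolytic fibres. CAB39 and EEF2K were also picked out by the study on these same animals, so their inclusion is not independent of these data.

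Levels are given as FPKM, the coverage of a transcript per aligned gigabase, summed over the transcripts of a gene. Each library held 14.1 to 17.99 gigabases of aligned sequence, with all 3 Luxi libraries deeper than all 3 Shandong black libraries. No muscle marker was listed at 0, and the summed FPKM of 6 such genes was 23353 in Luxi replicate 1 and 45628 to 70535 in the other animals. Luxi replicate 1 stood apart in ACTA1 (12237 FPKM, against 32188 or more elsewhere) and DES (174 FPKM, against 1249 or more). It was also lowest in CKM (1832 FPKM, against 2232 or more). It was highest in NEB (590 FPKM, against 463 or less) and within the range of the other animals in MB (7894 FPKM) and TTN (625 FPKM). Of 5 sex marker genes, 2 were called by limma, both lower in Luxi cattle. The animals did not overlap in XIST, a transcript of the inactive X chromosome. It had 4.83 to 14.0 FPKM in Shandong black cattle and 0 to 0.207 FPKM in Luxi cattle (adjusted p = 0.0105). EIF2S3 had 24.2 to 39.3 and 4.41 to 7.86 FPKM (adjusted p = 0.0181). With exon coverage (all same-strand transcripts over the exons of a gene) its log2 fold change was −0.74 (adjusted p = 0.110). The other sex markers, KDM6A, KDM5C and DDX3X, were not called and overlapped between the breeds. Their log2 fold changes were −0.13, 0.40 and 0.49, so KDM5C and DDX3X had higher means in Luxi cattle. The labels give no sex, so a difference in sex cannot be told apart from breed. Summed fat cell markers (6 genes, 4 of them called lower in Luxi cattle) had 127 to 189 FPKM in Shandong black cattle and 11.97 to 35.5 FPKM in Luxi cattle, with LEP listed at 0 in Luxi replicate 1. Of 8 slow fibre genes, 1 (TNNI1) was called lower in Luxi cattle, and the sums had 26286 to 32790 and 3235 to 13572 FPKM. MYL3, of the same list, was not called but was higher in every Luxi animal, with 13.1, 46.4 and 26.6 FPKM in Shandong black cattle and 1180, 63.5 and 244 FPKM in Luxi cattle (log2 fold change 3.33, adjusted p = 0.119). Of 8 fast fibre genes, 0 were called by limma and 6 had an unadjusted p under 0.05. They summed to 1796 to 4417 FPKM in Shandong black cattle and to 4164, 25360 and 22635 FPKM in Luxi replicates 1, 2 and 3. With exon coverage, limma called the fast gene MYH1 higher (log2 fold change 3.32, adjusted p = 0.0372) and the slow gene MYH7 lower in Luxi cattle (−2.50, adjusted p = 0.0142). TNNC2, a fast gene, had 129 FPKM in Luxi replicate 1 but an exon coverage of 1491 per gigabase. Fibroblast markers (2 of 5 called higher in Luxi cattle) summed to 109 to 159 and 376 to 502 FPKM, and endothelial markers (0 of 3 called, 2 with an unadjusted p under 0.05) to 14.5 to 15.1 and 19.1 to 57.7 FPKM. Leukocyte markers (0 of 2 tested genes called, 1 with an unadjusted p under 0.05) summed to at most 7.001 FPKM, with CD3E listed at 0 in Luxi replicate 3, and blood markers to at most 1.11 FPKM, with HBA listed at 0 in 3 of the libraries. Beside these counts, 2.57% of all genes tested were called, by the thresholds given below, and 21.8% had an unadjusted p under 0.05. The part of these lists in the results for the AMPK genes was not tested. In bulk tissue, fewer cells of a type and less RNA per cell cannot be told apart.

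Of the 10 genes, 1 was called different between the breeds. The call required an adjusted p under 0.05 together with a log2 fold change that was 1 or larger in either direction, and 2.57% of all genes tested met it (1.54% higher and 1.02% lower in Luxi cattle). The called gene was PRKAA2, which was higher in Luxi cattle. CAB39, EEF2K and PRKAA1 also had no overlap between the animals of the breeds without being called. Thus 4 of the 10 genes did not overlap, 2 of them higher and 2 lower in Luxi cattle, against 29.1% of all genes tested (20% higher and 9.13% lower). A log2 fold change of 1 or larger in size, whatever its p, was found for 5 of the 10 genes and for 8.06% of all genes tested. The 5 became 3 with size factors or quantile normalization, 3 without Shandong black replicate 1 and 2 (CAB39 and PRKAG3) with exon coverage. An unadjusted p under 0.05 was found for 5 of the 10 genes, and for 21.8% of all genes tested. The log2 fold change, Luxi over Shandong black cattle, ran from −1.03 for CAB39 to 1.64 for PRKAG3, with a median of 0.36 against 0.13 over all genes tested. That median over all genes was 0.02 after size-factor scaling and 0.00 after quantile normalization, and the sign of none of the 10 genes changed under either.

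**Figure D1:**
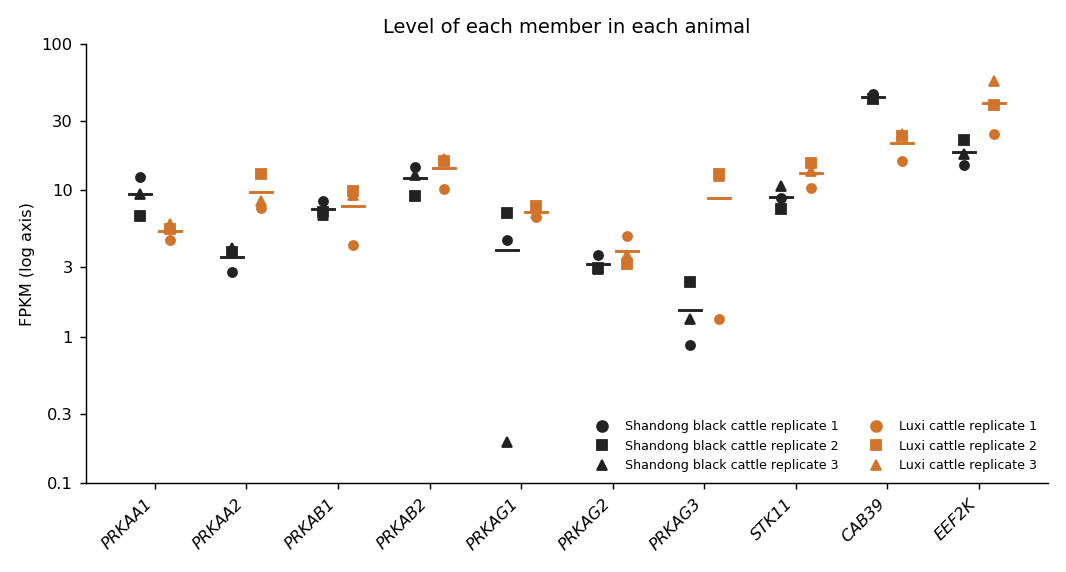
FPKM (log axis) of the 10 genes in each animal, with Shandong black cattle in black and Luxi cattle in orange, 1 symbol per replicate number and a bar at each breed mean. The Luxi animals lie above all Shandong black animals in PRKAA2 and EEF2K and below them in PRKAA1 and CAB39.

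The estimates of the catalytic subunits had opposite signs. PRKAA2 encodes α2, the main catalytic isoform of adult skeletal muscle, and lies on chromosome 3 at 89470349 to 89549705 on the minus strand (ARS-UCD1.2). It had 2.76, 3.797 and 4.04 FPKM in Shandong black replicates 1, 2 and 3 and 7.62, 13.01 and 8.48 FPKM in Luxi replicates 1, 2 and 3. The lowest Luxi animal was thus above the highest Shandong black animal, and the means were 3.53 ± 0.680 and 9.70 ± 2.89 FPKM (SD, n = 3). On the log2(FPKM + 1) scale the fold change was 1.22 (SE 0.24, adjusted p = 0.0466 by limma). PRKAA1 encodes α1, the catalytic isoform found in most tissues, and lies on chromosome 20 at 33674727 to 33703224 on the plus strand. Its FPKM was 12.3, 6.68 and 9.51 in Shandong black cattle against 4.59, 5.49 and 5.89 in Luxi cattle. All 3 Luxi animals were below all Shandong black animals, with a log2 fold change of −0.70 (SE 0.24, adjusted p = 0.149), and the gene was not called.

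The balance of the isoforms followed from these values. PRKAA2 made up 18.3, 36.2 and 29.8% of the catalytic subunit FPKM in Shandong black cattle against 62.4, 70.3 and 59.0% in Luxi cattle. By FPKM, PRKAA1 was the larger component in each Shandong black animal, and PRKAA2 in each Luxi animal. With exon coverage over all reference exons, PRKAA1 was the larger in all 6 animals. The share of PRKAA2 was then 7.76, 21.5 and 15.1% in Shandong black cattle against 28.1, 45.7 and 35.5% in Luxi cattle. These shares again did not overlap (exact permutation p = 0.1). That coverage divides PRKAA1 by 4707 exon bases and PRKAA2 by 9286, which include those of a long transcript listed in 1 library at 0.00576 FPKM. Over the main transcripts alone, PRKAA2 was the larger in Shandong black replicate 2 (59.7%) and in each Luxi animal (67.9 to 81.9%). By FPKM the mean share of PRKAA2 was 28.1 ± 9.10% against 63.9 ± 5.80% (SD, n = 3), a difference with p = 0.1 in a two-sided exact permutation test, which is the smallest p that 3 animals against 3 can give. The summed FPKM of both catalytic genes was 13.04 ± 2.35 and 15.02 ± 3.19, and overlapped between the breeds (exact permutation p = 0.5).

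**Figure D2:**
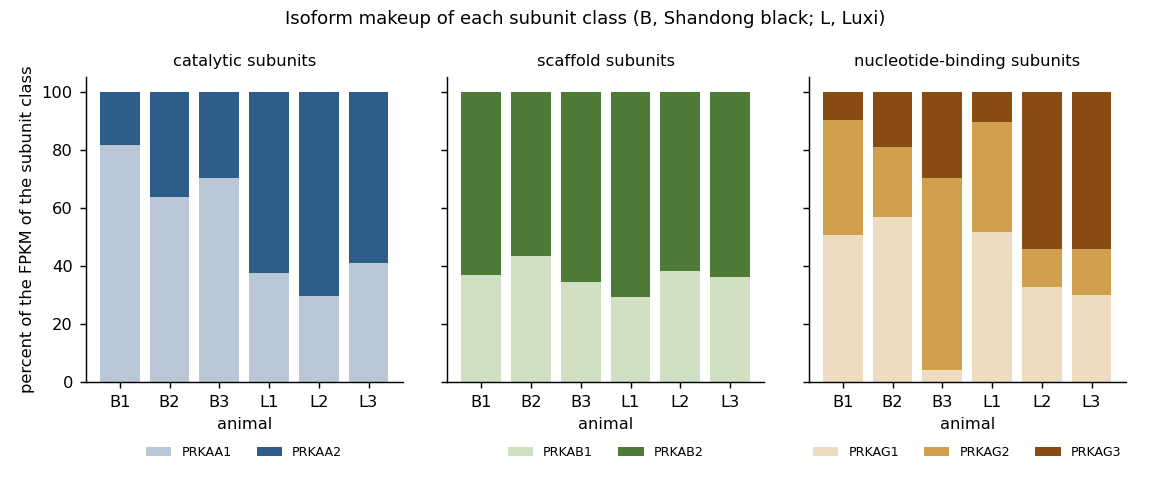
Share of each gene in the FPKM of its subunit class (percent, from 0), 1 stacked bar per animal, B for Shandong black and L for Luxi cattle. PRKAA2 takes 18.3 to 36.2% of the catalytic class in Shandong black and 59.0 to 70.3% in Luxi cattle, while PRKAB2 takes 56.5 to 70.7% of the scaffold class in all 6 animals.

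The call of PRKAA2 depended on how its level was read from the files. Nearly all of its FPKM (99.9% or more in each animal) was on the reference transcript rna9510, with 9 exons and 1659 bases, while the longer rna9509 of 9144 bases was listed in Luxi replicate 3 alone, at 0.00576 FPKM. The mean coverage of the exons of rna9510 was 1.25 to 2.57 times the coverage that the files give for the whole transcript. For 56311 reference transcripts with an FPKM of at least 1 in a library, the median of this ratio was 1.00, and 4.98% were above 1.2. Per aligned gigabase, the exon mean of rna9510 was 5.51, 9.77 and 8.92 in Shandong black cattle against 9.52, 24.8 and 17.1 in Luxi cattle. Read this way, Luxi replicate 1 lay within the range of the Shandong black animals, and the ratio of the breed means was 2.12 (exact permutation p = 0.2). In the limma fit on exon coverage over all reference exons of each gene, PRKAA2 had a log2 fold change of 0.69 and was not called (adjusted p = 0.173), when 3.12% of the genes tested were. That fit divides by all 9286 exon bases of the gene, including those of rna9509. The breed means were then 1.44 and 3.06 per gigabase, low values at which the 1 added before the log makes the fold smaller.

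By exon, all 9 exons of rna9510 had a higher mean in Luxi cattle, and in 3 of them the breeds did not overlap. The ratio of the means ran from 1.44 in exon 1 to 2.78 in exon 7. In exon 7, of 505 bases, coverage per gigabase was 6.17, 10.7 and 7.93 in Shandong black cattle against 15.1, 32.3 and 21.8 in Luxi cattle. In exon 4 it was 5.40, 12.1 and 11.3 against 5.07, 25.9 and 17.4, so Luxi replicate 1 was lowest of all 6 there. In PRKAA1, the breeds did not overlap in 7 of the 9 exons of rna58270, with all 7 lower in Luxi cattle. That transcript carried 71.7 to 93.5% of the PRKAA1 FPKM, and the shorter rna58274, with 8 exons, carried 6.55 to 23.1%. With exon means of rna58270 and rna9510 in place of FPKM, the share of PRKAA2 was 31.2, 59.7 and 49.0% in Shandong black cattle against 67.9, 81.9 and 74.8% in Luxi cattle, so the shares still did not overlap, but PRKAA2 was the larger component in Shandong black replicate 2 as well.

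Leaving out animals also ended the call of PRKAA2. The gene was called in 1 of 6 fits that each left out 1 animal, the one without Luxi replicate 1 (adjusted p = 0.0295). The fold change kept its sign in the other 5, between 1.01 and 1.3 on the log2 scale, with adjusted p from 0.0930 to 0.172. Fits with TPM, size factors, quantile normalization, a replicate block and voom gave adjusted p from 0.0526 to 0.0592.

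The breeds overlapped in both scaffold subunits, and neither was called. PRKAB2 encodes β2, the isoform that predominates in skeletal muscle, and lies on chromosome 3 at 22529653 to 22545871 on the plus strand. Its FPKM was 14.5, 9.22 and 12.8 in Shandong black cattle against 10.3, 15.8 and 16.4 in Luxi cattle. Luxi replicate 1 was within the Shandong black range and the other two Luxi animals above it, with a log2 fold change of 0.20 (SE 0.26, adjusted p = 0.682). PRKAB1, which encodes β1 and lies on chromosome 17 at 55750471 to 55759923 on the minus strand, had 8.52, 7.10 and 6.76 FPKM in Shandong black cattle. In Luxi cattle it had 4.26 FPKM in replicate 1, the lowest of the 6 animals, and 9.85 and 9.30 FPKM in replicates 2 and 3, the highest. The fold change was −0.01 on the log2 scale (SE 0.30, adjusted p = 0.989), and without Luxi replicate 1 it was 0.33 (adjusted p = 0.227).

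PRKAB2 was the larger scaffold component in every animal. It made up 61.6 ± 4.59% of the scaffold FPKM in Shandong black cattle against 65.4 ± 4.71% in Luxi cattle (SD, n = 3, exact permutation p = 0.5). The difference between the breeds was smaller than the SD within either. The coverage of PRKAB2 peaked in exon 5 of its main transcript rna8091, at 64.2, 61.2 and 61.8 per gigabase in Shandong black cattle against 56.0, 106 and 105 in Luxi cattle. Transcript rna48160 carried 60.7 to 100% of the PRKAB1 FPKM, and rna8091 carried 81.4 to 98.4% of the PRKAB2 FPKM. In neither gene did any exon of the main transcript separate the breeds.

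Among the γ subunits, PRKAG3 had the largest estimated difference of the 10 genes but was not called. It lies on chromosome 2 at 106784937 to 106794848 on the minus strand. Its FPKM was 0.886, 2.35 and 1.32 in Shandong black cattle against 1.33, 12.9 and 12.6 in Luxi cattle. Luxi replicates 2 and 3 were far above every Shandong black animal, and Luxi replicate 1 was within the Shandong black range. The log2 fold change was 1.64 (SE 0.67, adjusted p = 0.212). Without Luxi replicate 1, it was 2.49 and the gene was called (adjusted p = 0.0132). The same replicate had the lowest sum of general muscle markers of all 6 animals, with ACTA1 the largest term, but not the lowest NEB, MB or TTN. It also had the lowest fast fibre markers of the Luxi animals. MYLPF, the fast regulatory myosin light chain, had 779, 2598 and 1519 FPKM in Shandong black cattle and 2065, 10464 and 11149 FPKM in Luxi cattle. The part of either list in the PRKAG3 values was not tested.

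By FPKM, most of the difference in the PRKAG3 estimates lay in the transcripts that end at 106786779. Their summed FPKM, over 6 transcripts, was 0.0436, 1.56 and 0.4997 in Shandong black cattle against 0.761, 11.7 and 11.4 in Luxi cattle. The 7 transcripts that extend further, to 106785026 or beyond, had 0.842, 0.792 and 0.821 FPKM in Shandong black cattle and 0.573, 1.21 and 1.16 FPKM in Luxi cattle. The longer group therefore overlapped between the breeds within a narrow range, and these groups were formed after the values were seen. In all 14 exons of the transcript rna5111 the Luxi mean was higher, by a ratio of 2.92 to 7.50, but the breeds were apart in 1 exon only (exon 13).

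PRKAG1, the γ subunit found in most tissues, is on chromosome 5 at 30799602 to 30814433 on the plus strand. Its FPKM was 4.60, 7.06 and 0.192 in Shandong black cattle against 6.63, 7.86 and 6.99 in Luxi cattle. Shandong black replicate 3 stood far below the other 5 animals, and with it the log2 fold change was 1.11 (SE 0.64, adjusted p = 0.351). In that library, StringTie had built a transcript of 27 exons and 9345 bases, from 30786378 to 30814433, that joins the neighbouring gene KMT2D to PRKAG1 and is counted under KMT2D. Its 11 exons within PRKAG1 had a mean coverage of 78.2 reads per base, against 20.5 on its exons before PRKAG1 and 2.77 on the PRKAG1 reference transcript itself. Of the coverage over the PRKAG1 exons of this library, 96.6% was listed under the joined transcript, and in the other 5 libraries none was. When the coverage of all transcripts on the same strand was taken, PRKAG1 had 4.69, 7.21 and 5.57 per gigabase in Shandong black cattle against 6.77, 8.01 and 7.15 in Luxi cattle, and the log2 fold change was 0.30 (adjusted p = 0.371). The low value of replicate 3 was thus absent from the exon coverage.

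PRKAG2, a γ subunit known for its role in the heart, spans 114085628 to 114415653 on chromosome 4, minus strand. It had 3.60, 2.97 and 2.92 FPKM in Shandong black cattle and 4.89, 3.13 and 3.64 FPKM in Luxi cattle, with a log2 fold change of 0.22 (SE 0.19, adjusted p = 0.524). The highest value was that of Luxi replicate 1. Most of its FPKM came from the short transcripts rna13494 and rna13495, which start near 114288859 and made up 52.2 to 67.3% in Shandong black cattle against 92.9, 58.9 and 61.6% in Luxi cattle. The 5 long transcripts that start near 114415653 made up 6.03% in Luxi replicate 1 and 24.1 to 42.0% in the other 5 animals.

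PRKAG3 made up 9.74, 19.0 and 29.8% of the γ subunit FPKM in Shandong black cattle against 10.4, 54.0 and 54.2% in Luxi cattle (exact permutation p = 0.3). With exon coverage the shares were 10.7, 16.2 and 13.04% and 9.93, 42.4 and 43.5% (exact permutation p = 0.4). The summed γ FPKM did not overlap between the breeds (exact permutation p = 0.1). It was 9.09, 12.4 and 4.43 in Shandong black cattle, where the third value holds the low PRKAG1 value, against 12.9, 23.9 and 23.2 in Luxi cattle. The gap was narrow, between 12.4 in Shandong black replicate 2 and 12.9 in Luxi replicate 1. Summed exon coverage over all reference exons reversed the order of these animals, so the breeds overlapped. Summed exon means of the main transcripts kept it.

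CAB39 had the most negative estimate of the 10 genes and was not called. It lies on chromosome 2 at 118530388 to 118632801 on the plus strand. Its FPKM was 45.9, 42.3 and 42.7 in Shandong black cattle against 15.8, 23.5 and 24.2 in Luxi cattle, so that the Shandong black mean was 2.06 times the Luxi mean. The breeds were far apart relative to the spread within Shandong black cattle (43.6 ± 1.97 FPKM) and within Luxi cattle (21.2 ± 4.67 FPKM; SD, n = 3). The log2 fold change was −1.03 (SE 0.24, adjusted p = 0.0681). CAB39 was called with TPM (adjusted p = 0.0333), with size factors (0.0356) and with quantile normalization (0.0274), where its fold change was −1.17 to −1.18. Over the 17 fits tried beside the first, its adjusted p ran from 0.0274 to 0.250, and it was called in 3.

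The lower coverage of CAB39 in Luxi cattle ran along the whole transcript. In all 9 exons of rna5466 every Luxi animal was below every Shandong black animal, with ratios of the means from 0.293 in exon 4 to 0.682 in exon 8. Exon 4 had 86.0, 86.8 and 79.7 coverage per gigabase in Shandong black cattle against 14.1, 31.0 and 29.0 in Luxi cattle. The last exon, of 2592 bases, had 29.5, 25.1 and 27.2 and then 9.99, 13.1 and 14.9. The shorter transcript rna5467, which starts at 118575814, had 6.64, 4.87 and 5.14 FPKM in Shandong black cattle and 1.15, 1.41 and 1.58 FPKM in Luxi cattle. It made up 11.5 to 14.5% of CAB39 in Shandong black cattle and 6.003 to 7.30% in Luxi cattle, a comparison chosen after the values were seen.

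STK11, the LKB1 gene on chromosome 7 at 43655303 to 43672270, plus strand, had 8.88, 7.45 and 10.7 FPKM in Shandong black cattle and 10.5, 15.4 and 13.6 FPKM in Luxi cattle. The ranges overlapped in 1 animal of each breed, and the log2 fold change was 0.50 (SE 0.22, adjusted p = 0.248). LKB1 and its scaffold thus differed in the sign of their estimates. Transcript rna22955 carried 65.7 to 80.2% of the STK11 FPKM, and all 10 of its exons had a higher mean in Luxi cattle, 1 of them (exon 10) without overlap.

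EEF2K was higher in every Luxi animal but was not called. It lies on chromosome 25 at 19884886 to 19957077 on the plus strand. Its FPKM was 14.9, 22.2 and 17.7 in Shandong black cattle against 24.4, 38.4 and 55.6 in Luxi cattle. The means were 18.2 ± 3.68 and 39.5 ± 15.6 FPKM (SD, n = 3), and the log2 fold change was 1.02 (SE 0.33, adjusted p = 0.137). The spread within Luxi cattle was wide, and without Luxi replicate 1 the fold change was 1.31 and the gene was called (adjusted p = 0.0365).

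In Luxi replicate 3 the coverage of EEF2K was divided among its transcripts in another way than in the other animals. In the other 5 animals, rna67983 and rna67984 carried 98.5 to 98.97% of the FPKM, and in Luxi replicate 3 they carried 32.1%. There, rna67985 had 17.5 FPKM and rna67986 had 17.4 FPKM, while in the other libraries neither passed 0.353 FPKM. The coverage of rna67985 in that library was 501 reads per base on its last exon of 3324 bases and had a median of 0.844 on its other exons. For rna67983 the last exon had 28.0 reads per base and the others a median of 751. From the coverage of all its transcripts over the exons, EEF2K had 14.9, 21.7 and 17.3 per gigabase in Shandong black cattle against 23.8, 37.7 and 42.9 in Luxi cattle. The breeds still did not overlap, and the log2 fold change was 0.89 (adjusted p = 0.108). By exon, all 18 exons of rna67983 had a higher mean in Luxi cattle, with ratios from 1.47 to 2.17, but the breeds were apart in 2 exons, with Luxi replicate 1 within or below the Shandong black range in the other 16.

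**Figure D3:**
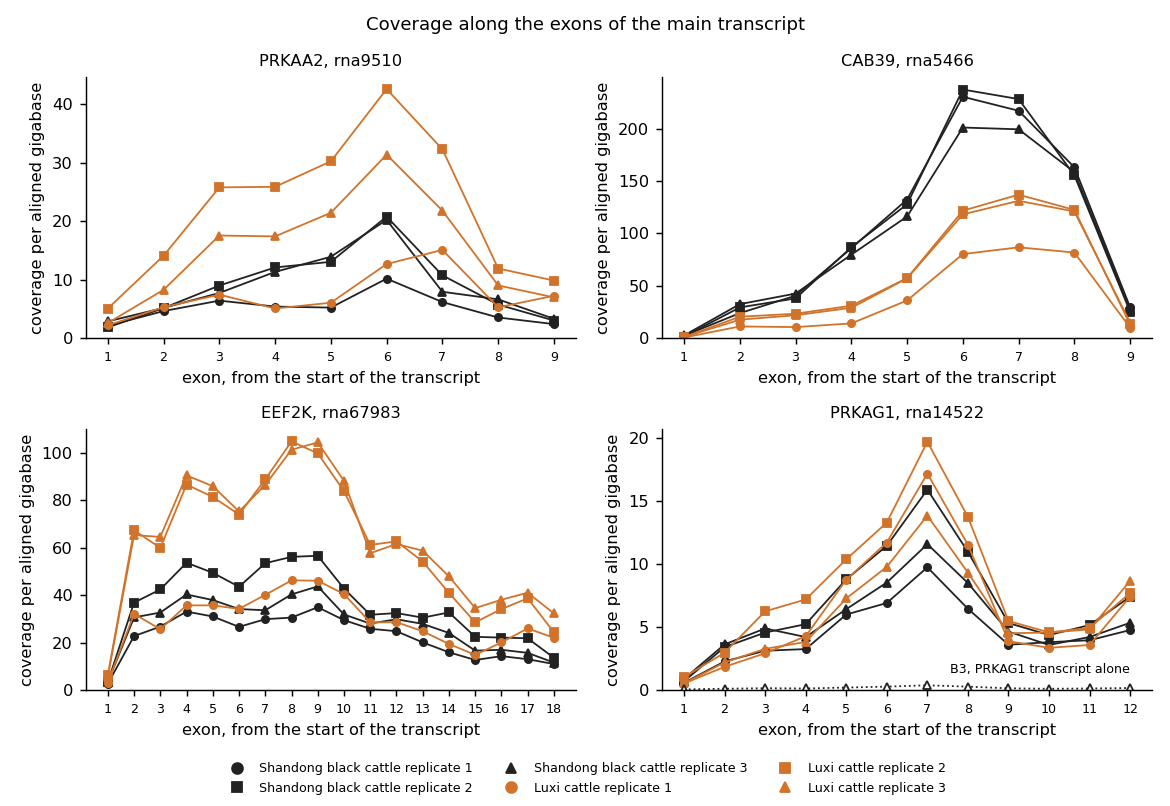
Coverage per aligned gigabase in each exon of the main transcript of PRKAA2, CAB39, EEF2K and PRKAG1, from the start of the transcript, 1 line per animal (Shandong black in black, Luxi in orange). Luxi replicate 1 (orange circles) runs among the Shandong black lines in most exons of PRKAA2 and EEF2K, CAB39 is lower in all 3 Luxi animals in all 9 exons, and the dotted line shows what was listed under PRKAG1 itself in Shandong black replicate 3.

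**Figure D4:**
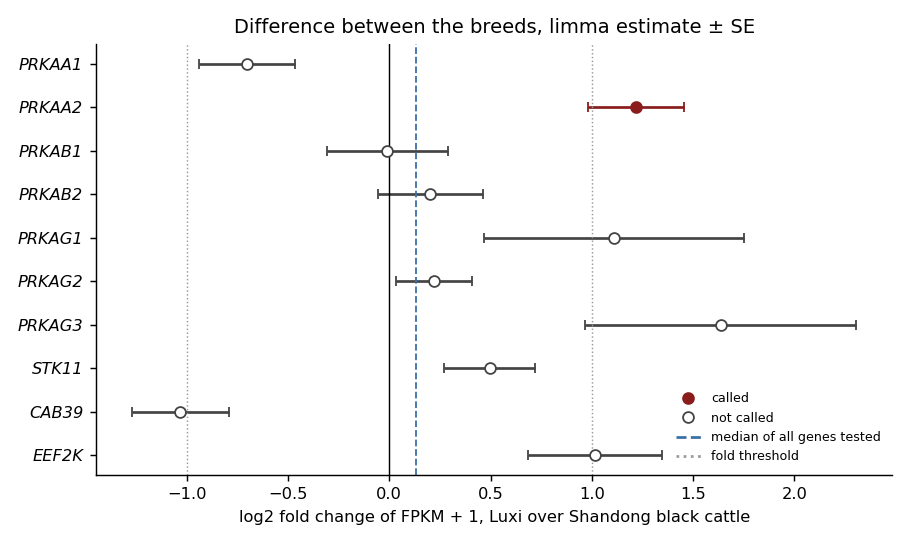
Log2 fold change of FPKM + 1, Luxi over Shandong black cattle, of the 10 genes with its standard error (limma, 3 animals per breed), with the called gene filled. PRKAA2 at 1.22 is called, while PRKAG3 at 1.64, PRKAG1 at 1.11 and EEF2K at 1.02 have wider errors and CAB39 at −1.03 has an adjusted p of 0.0681.

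The order of the levels differed between the breeds. In Shandong black cattle the genes ranked CAB39, EEF2K, PRKAB2, PRKAA1, STK11, PRKAB1, PRKAG1, PRKAA2, PRKAG2 and PRKAG3 by mean FPKM, from 43.6 to 1.52. In Luxi cattle EEF2K was first at 39.5 FPKM, followed by CAB39, PRKAB2, STK11, PRKAA2, PRKAG3, PRKAB1, PRKAG1, PRKAA1 and PRKAG2 at 3.89. Over all 6 animals, CAB39 was above EEF2K in the 3 Shandong black animals and in no Luxi animal. EEF2K was above PRKAB2 in all 6, and STK11 was above PRKAB1 in all 6. The ranges of all neighbours in this order overlapped. PRKAA1 was above PRKAA2 in the 3 Shandong black animals and in no Luxi animal. PRKAB1 was above PRKAA1 in 3 of the 6 animals, so that this pair did not differ beyond its spread. PRKAG1 was above PRKAG3 in 3 by FPKM, a count that holds the low PRKAG1 value of Shandong black replicate 3. By exon means of the main transcripts, PRKAG1 was above PRKAG3 in that replicate (5.57 against 1.70 per gigabase). PRKAG3 stayed above in Luxi replicates 2 and 3. With exon coverage over all reference exons, PRKAG1 was above PRKAG3 in each animal, narrowly so in Luxi replicate 3 (7.15 against 7.04 per gigabase). That coverage divides PRKAG1 by 1595 exon bases and PRKAG3 by 4816, while the PRKAG3 transcript rna5111 has 2468.

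Other genes of the pathway were taken from fixed lists of 50 genes, of which 43 were tested and 6 were not analysed here. Of the 43, 1 was called, PFKFB3, and 11 did not overlap between the breeds (25.6%), against 2.57% called and 29.1% without overlap over all genes tested. An unadjusted p under 0.05 was found for 11 of the 43, and for 21.8% of all genes tested. The median log2 fold change was 0.23. PFKFB2, PFKFB3 and PPARGC1A were also picked out by the study on these animals. No gene was called by limma among 5 other upstream kinases and LKB1 partners (1 with an unadjusted p under 0.05), and in 4 of them the estimate was lower in Luxi cattle. The one without overlap was MAP3K7, which encodes the kinase TAK1, with 7.11, 4.82 and 6.88 FPKM in Shandong black cattle and 3.44, 3.40 and 4.28 FPKM in Luxi cattle (log2 fold change −0.62, adjusted p = 0.133). From reference transcripts alone its fold change was −1.33 (adjusted p = 0.0804). STRADB, an LKB1 partner, had 23.6, 39.2 and 30.2 FPKM against 11.98, 27.8 and 29.5 FPKM (adjusted p = 0.488).

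Among 7 tested genes of adiponectin receptors, the folliculin complex and sestrins, limma called none, and 2 had an unadjusted p under 0.05. ADIPOR2, an adiponectin receptor, had 7.11, 8.77 and 10.1 FPKM in Shandong black cattle and 12.9, 17.1 and 15.8 FPKM in Luxi cattle. Its breeds did not overlap (log2 fold change 0.76, adjusted p = 0.101). With exon coverage they did, at 6.34, 10.7 and 11.4 against 9.77, 14.6 and 14.8 per gigabase (log2 fold change 0.44, adjusted p = 0.361). The estimate of the other receptor, ADIPOR1, had the opposite sign, and its breeds overlapped. It had 26.7, 20.7 and 33.5 FPKM against 12.8, 20.7 and 24.5 FPKM (log2 fold change −0.48, adjusted p = 0.388 by limma). FNIP2, a folliculin partner, had 2.81, 1.55 and 2.31 FPKM against 8.83, 3.30 and 3.74 FPKM (log2 fold change 0.88, adjusted p = 0.187).

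The genes of proteins that AMPK phosphorylates had the highest median of the lists. Their median log2 fold change was 0.59, against 0.13 over all genes tested, and 16 of 17 had an estimate above 0, as did 62.5% of all genes tested. The called gene, PFKFB3, encodes an enzyme that makes fructose 2,6-bisphosphate, an activator of glycolysis. It had 2.92, 6.49 and 6.02 FPKM in Shandong black cattle and 26.0, 347 and 129 FPKM in Luxi cattle. Every Luxi animal was above every Shandong black animal, with a wide spread within Luxi cattle, and the log2 fold change was 4.18 (SE 0.84, adjusted p = 0.0496). That call was lost in 5 of the 6 fits that left out 1 animal. PPARGC1A, a coactivator of mitochondrial genes, had 2.07, 1.70 and 1.93 FPKM against 44.5, 5.18 and 7.14 FPKM, with Luxi replicate 1 far above the rest (log2 fold change 2.19, adjusted p = 0.129). TBC1D1, which takes part in the movement of the glucose transporter GLUT4, had 3.56, 2.76 and 3.31 FPKM against 8.55, 4.92 and 4.61 FPKM (log2 fold change 0.70, adjusted p = 0.150).

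In the translation arm, around mTOR and the EEF2K substrate EEF2, limma called 0 of 6 genes, and none had an unadjusted p under 0.05. EEF2 itself had 260, 323 and 289 FPKM in Shandong black cattle and 120, 256 and 277 FPKM in Luxi cattle, and its ranges overlapped (log2 fold change −0.50, adjusted p = 0.482). Of 8 tested AMPK-related kinases, which LKB1 also activates, limma called none and 3 had an unadjusted p under 0.05. These were SIK1 (8.75 ± 3.36 against 18.6 ± 1.54 FPKM, adjusted p = 0.0952), SIK3 (11.1 ± 1.82 against 6.98 ± 1.63 FPKM, adjusted p = 0.181) and MARK2 (4.24 ± 0.877 against 6.81 ± 0.995 FPKM, adjusted p = 0.145; SD, n = 3). By FPKM, SIK1 and MARK2 were higher and SIK3 lower in each Luxi animal. The log2 fold change of MARK2 was 0.58, and 0.06 from reference transcripts alone (adjusted p = 0.951).

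**Figure D5:**
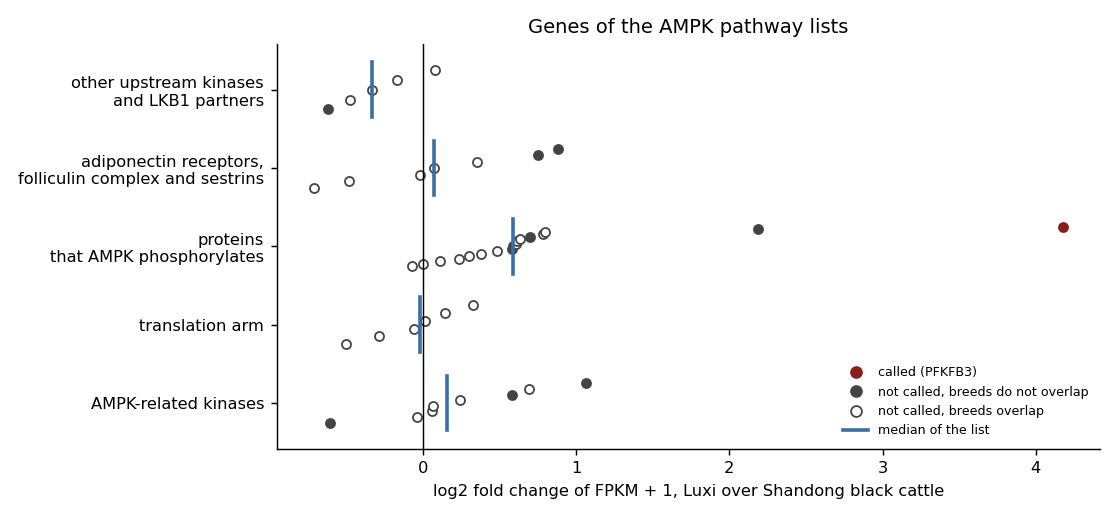
Log2 fold change of FPKM + 1, Luxi over Shandong black cattle, of the 43 tested genes of the 5 pathway lists, 1 point per gene, with a bar at each list's median. Genes of AMPK-phosphorylated proteins have a median of 0.59 and include the 1 called gene, PFKFB3 at 4.18, while the other medians lie between −0.33 and 0.16.

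The genes with the pattern nearest to a member were found among 8220 tested genes by the root mean square difference of log2(FPKM + 1), centred on its mean over the 6 animals. For PRKAA2 they included LOC112446127 (0.114) and FARP1 (0.118). FARP1 had 1.80, 2.02 and 1.89 FPKM in Shandong black cattle and 4.64, 7.83 and 5.55 FPKM in Luxi cattle. For PRKAB2 they were ITGB5 (0.0349), ENTR1 (0.0451) and CPEB2 (0.0670). ITGB5 followed PRKAB2 closely, with 12.2, 8.36 and 11.5 FPKM and then 9.26, 14.5 and 14.6 FPKM. For PRKAG3 they were NR4A1 (0.155), CHRNE (0.196) and SLC37A4 (0.204). NR4A1, a nuclear receptor gene, had 9.81, 16.9 and 14.1 FPKM in Shandong black cattle and 12.5, 63.4 and 67.5 FPKM in Luxi cattle, low in Luxi replicate 1 as PRKAG3 was. These are descriptions over 6 animals that share the breed difference, and no test was made of them.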

How the data were processed

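Reads had been cleaned by the authors (Fastp) and aligned with HISAT, with ARS-UCD1.2 as the genome. Transcripts of each library were then built by StringTie (1.3.3b per the file headers), guided by the NCBI annotation and with stranded reads. The deposited files list other values per transcript: coverage, FPKM and TPM as computed by the authors. Cuffdiff, which the study used for its test, was not run here. For each gene, FPKM was summed over its reference transcripts plus any same-strand assembled transcript lying on the reference exons for 50% or more of its length. The assembled transcripts left out held between 21.6 and 29.8% of a library's FPKM. Testing was limited to genes whose mean FPKM reached 1 in either breed, and was done with limma 3.58.1 in R 4.3.3 (lmFit, eBayes with trend) on log2(FPKM + 1), so that folds of low genes are understated, with Benjamini-Hochberg adjustment over all genes tested. Shares and single sums were compared by two-sided exact permutation tests over animals. The procedure was tested on simulated data. Alternatives were another pseudocount or filter, TPM, size factors, quantile normalization, no trend, voom, a replicate block, reference transcripts only, exon coverage, other fold thresholds and leaving out each animal.

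Groups came from the breed label. Read counts were not used in the main fit, so no counting error is given, and precision is limited by 3 animals per breed. For the voom alternative, counts were approximated as coverage times transcript length, divided by an assumed read length of 150 bases. Same-numbered animals of the breeds are different animals, so the numbers were not taken as pairs in the main fit. Their deviations had correlations of 0.0745 to 0.0869, against −0.107 to 0.00834 for animals of unlike number. A fit with the number as a block is among the alternatives. The members and lists were chosen with earlier results of these data known, and the exon coverage alternative and the transcript groups after the files were seen. Named genes were all 10 members, called genes of the fixed pathway lists and the 3 with the largest change without overlap in each list, and the 3 nearest patterns among genes with an SD of at least 0.2. A gene that this rule names for PRKAA2 is not reported here. STRADB, EEF2 and ADIPOR1 were named outside this rule, after their values were seen. All 10 gene names were found in the ARS-UCD2.0 gene table, which gave no sequences, and none are printed.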

Additional observations from a re-analysis of the deposited data

How the results depend on the processing

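Of 10 genes, 1 was called, and 1 also with a pseudocount of 0.1, a mean FPKM of at least 5, TPM, size factors, quantile normalization, no trend or no fold threshold. TPM, size factors and quantile normalization called CAB39 in place of PRKAA2. No member was called (0) without a filter on low FPKM, under voom or the replicate block, from reference transcripts alone, from exon coverage or at a log2 fold change of at least 2, and 0 to 3 were called when 1 animal was left out. The 3 were PRKAA2, PRKAG3 and EEF2K, without Luxi replicate 1. PRKAB1 changed sign without Shandong black replicate 1 (0.08) or without Luxi replicate 1 (0.33), in a range of −0.20 to 0.33 when 1 animal was left out, and no other member changed sign in any alternative. Of pathway genes, 1 was called, and 0 with a pseudocount of 0.1, no filter, no trend, voom or reference transcripts only, and 0 to 3 when 1 animal was left out (PFKFB3, PPARGC1A and HDAC5 without Luxi replicate 1).

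Over all genes, 251 calls became 47 with no filter, 134 at a mean FPKM of at least 5, 135 under the replicate block, 91 by voom, 163 from reference transcripts alone, 67 at a log2 fold change of at least 2, and 3 to 593 when 1 animal was left out (10 without Shandong black replicate 1, 3 without replicate 3, 44 without Luxi replicate 2, 87 without Luxi replicate 3 and 593 without Luxi replicate 1). The share of calls that were higher in Luxi cattle was 60.2%, and 43.6% with size factors, 43.1% with quantile normalization and 51.9% with TPM. The cause of these changes was not tested.

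With the replicate block PRKAA2 had an adjusted p of 0.0592, and no other call among the members was changed. The exact paired p of its share was 0.25, the smallest that 3 pairs can give. Same-numbered animals correlated best with each other, a hint from the data only. The difference in share of PRKAA2, PRKAB2 and PRKAG3 kept its sign in each alternative run, with p for PRKAG3 of 0.1 to 0.6. That of PRKAG1 was 0.865 percentage points with FPKM, −0.0836 with reference transcripts and −13.9 with exon coverage. Depth was not a tested limit, since the main fit used no counts.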

Other observations

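Within the span of PRKAG2, on its strand, Luxi replicate 1 had 68 assembled transcripts that were not counted toward the gene, with 117915 bases and a summed FPKM of 53.4. The other 5 libraries had 1 to 6 such transcripts, with 0.334 to 4.38 FPKM. The PRKAG2 exons near the start of rna13494 were also highest in that library: exon 2 had 8.89 coverage per gigabase in Luxi replicate 1 and 0.883 to 2.08 in the other animals, while the last exon had 2.19 in Luxi replicate 1 and 1.61 to 2.29 elsewhere. In PRKAG3, Shandong black replicate 3 had an assembled transcript of 15 exons that runs on to 106739432, past the annotated end of the gene, and carried 33.9% of the PRKAG3 FPKM of that animal. No such transcript was listed in the other animals.

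Among the other kinases that LKB1 activates, SIK2 had 5.46 ± 0.547 FPKM in Shandong black cattle and 5.34 ± 0.990 FPKM in Luxi cattle, and MARK3 had 14.3 ± 2.68 and 15.0 ± 1.97 FPKM (SD, n = 3). ACACA, which encodes an enzyme of fatty acid synthesis that AMPK inhibits, had 2.41 ± 0.322 and 2.43 ± 0.449 FPKM (SD, n = 3). These genes were named after their values were seen.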
